A study of Mus musculus with 10 samples.

Results

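Autophagy is the pathway by which a cell wraps part of its own cytoplasm in a double membrane, the autophagosome, and delivers it to the lysosome for digestion. Of its genes, 10 were followed here: Ulk1, Ulk2, Becn1, Atg5, Atg7, Atg12, Atg16l1, Map1lc3b, Gabarapl1 and Tfeb. They were taken by name. The arrays held a probe for 19096 genes. All 10 genes had a probe, 16 probes in all, and all 16 probes were well above background on all 10 arrays. Where a gene had several probes, the brightest one (by its mean over the 10 arrays) stood for it, and the dimmer ones are given beside it.

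The arrays compared 5 whole lungs of wild type (WT) mice with 5 lung squamous cell carcinomas (SCC). All mice were of the B6.129 strain and 13 months old by the labels, and the labels give no sex. The WT mice carried the floxed Lkb1 allele without Cre (Lkb1f/f), and the tumours came from CCSPiCreLkb1f/f mice, so both groups share the floxed allele. In the latter, Cre is driven by the promoter of the club cell secretory protein, which per the study is active across the airway epithelium, so that stroma and blood cells in a tumour keep the floxed gene. No group carried CCSPiCre alone. Each array held RNA of 1 sample. The labels do not say whether the samples came from separate animals, and p-values measure the spread between these samples. In whole tissue, fewer cells of a type and less RNA per cell cannot be told apart.

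Autophagy begins with the ULK kinase complex, which starts the process when nutrients are scarce. LKB1 (also called Stk11) activates AMPK, and AMPK phosphorylates ULK1, whereas mTORC1 holds it back. Beclin 1, encoded by Becn1, is part of the class III PI3-kinase complex that marks the forming membrane with its lipid. Conjugation enzymes, among them ATG7, ATG12, ATG5 and ATG16L1, then attach proteins of the Atg8 family (LC3 and GABARAP proteins, such as those encoded by Map1lc3b and Gabarapl1) to the membrane, where they bind cargo receptors. TFEB is a transcription factor that switches on genes of autophagy and of the lysosome, in part through the CLEAR element, which has CACGTG (an E-box) at its core. These arrays measured RNA. They did not measure autophagic flux, protein or phosphorylation.

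Promoter windows, from 250 bases before to 50 after a RefSeq start site (build GRCm38.p6), were listed for 7 of the 10 genes, as 9 windows. They are shown for the 3 genes with the largest differences between SCC and WT. Atg5 is on chromosome 10 at chr10:44268089-44268388, plus strand. Gabarapl1 is on chromosome 6 at chr6:129532942-129533241, plus strand. Ulk2 is on chromosome 11 at chr11:61855043-61855342, minus strand. Capitals mark CACGTG.
Atg5: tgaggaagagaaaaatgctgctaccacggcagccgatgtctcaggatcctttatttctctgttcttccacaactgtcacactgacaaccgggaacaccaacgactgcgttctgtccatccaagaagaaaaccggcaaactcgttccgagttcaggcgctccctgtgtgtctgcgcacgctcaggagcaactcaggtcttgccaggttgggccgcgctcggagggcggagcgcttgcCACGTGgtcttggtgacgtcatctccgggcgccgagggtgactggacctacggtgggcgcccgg
Gabarapl1: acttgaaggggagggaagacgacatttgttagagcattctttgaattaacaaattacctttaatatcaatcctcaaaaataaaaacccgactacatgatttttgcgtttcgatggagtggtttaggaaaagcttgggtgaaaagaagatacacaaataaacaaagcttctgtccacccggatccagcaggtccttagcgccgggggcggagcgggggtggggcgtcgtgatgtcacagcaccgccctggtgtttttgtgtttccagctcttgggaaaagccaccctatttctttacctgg
Ulk2: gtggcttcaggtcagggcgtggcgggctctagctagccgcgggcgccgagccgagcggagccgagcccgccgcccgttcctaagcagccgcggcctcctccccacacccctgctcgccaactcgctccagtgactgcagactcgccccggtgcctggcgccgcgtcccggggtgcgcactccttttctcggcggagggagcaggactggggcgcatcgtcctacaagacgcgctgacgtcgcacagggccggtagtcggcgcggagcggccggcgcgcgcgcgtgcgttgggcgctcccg
The E-box in the Atg5 window began 14 bases before the start site, position -14. Searched on both strands, CACGTG was in 2 of the 9 windows (22.2%), those of Atg5 and Atg7, against 7.15% of all 32851 windows of this length in the table. The Atg7 window belongs to a start site 27969 bases inside the gene and says nothing of its first promoter. The full CLEAR element, a longer palindrome around that core, was in 0 of the 9 windows and in 0.326% of all. The forkhead motif GTAAACA, searched on both strands because FOXO factors act on autophagy genes, was in 0 of the 9 windows and in 3.65% of all. A match is a description of the letters, not evidence of binding.

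Among the 41174 probes, 71.0% to 74.5% were well above background on 9 arrays and 90.2% on SCC 5. SCC 2 stood apart by its cell markers. The mean log2 level of the 3 squamous markers measured in both groups (Krt5, Krt14 and Trp63, each higher in SCC by the test) was 5.63 to 6.14 on the WT arrays, 15.86 to 16.16 on the other 4 SCC arrays and 14.02 on SCC 2. Krt6a and Dsg3 were above background on 0 WT arrays, so they have no measured WT level. The alveolar type 2 mean (5 genes, 3 lower in SCC) was 14.90 to 15.02 on the WT arrays, 14.95 on SCC 2 and 14.20 to 14.41 on the other SCC arrays. SCC therefore names tissue in which squamous markers were high on every array. Of the alveolar type 2 markers on SCC 2, Sftpc, Sftpb and Slc34a2 were within the WT range, Lamp3 (14.89) was below it and Abca3 (14.47) above it.

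Of the 10 autophagy genes, 6 passed an adjusted p of 0.05 (limma with Benjamini-Hochberg adjustment over 30374 tested probes), 4 higher in SCC (Becn1, Atg5, Atg7 and Tfeb) and 2 lower (Ulk2 and Gabarapl1). The threshold was passed by 49.0% of all tested probes, 22.4% higher and 26.6% lower, and by 53.9% of the brightest probes of 15616 genes (25.5% higher and 28.4% lower), so 6 of 10 is near the background. With a difference of at least 2-fold required as well, 0 genes were higher and 2 were lower, where 22.9% of tested probes passed, 9.92% higher and 13.0% lower. The methods' t-test, run at an unadjusted p of 0.01 and 2-fold, also left 2 genes, where 19.3% of tested probes passed. The values of the SCC and WT arrays did not overlap for 4 genes (Ulk2, Becn1, Atg5 and Gabarapl1), against 37.3% of all probes. The median difference (SCC minus WT) over the 10 genes was 0.045 log2 units, against -0.090 over all tested probes. The median size of the difference, sign aside, was 0.38 for the 10 genes and 0.50 for all probes. Differences are in log2 units on the quantile-normalized scale. Scaling to the 75th percentile moved the median of all tested probes by 0.12 to 0.032, and single genes moved by unequal amounts. With it, Gabarapl1 differed by -0.97, less than 2-fold, and Ulk2 by -1.23. The single values below are to be read against that.

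**Figure D1:**
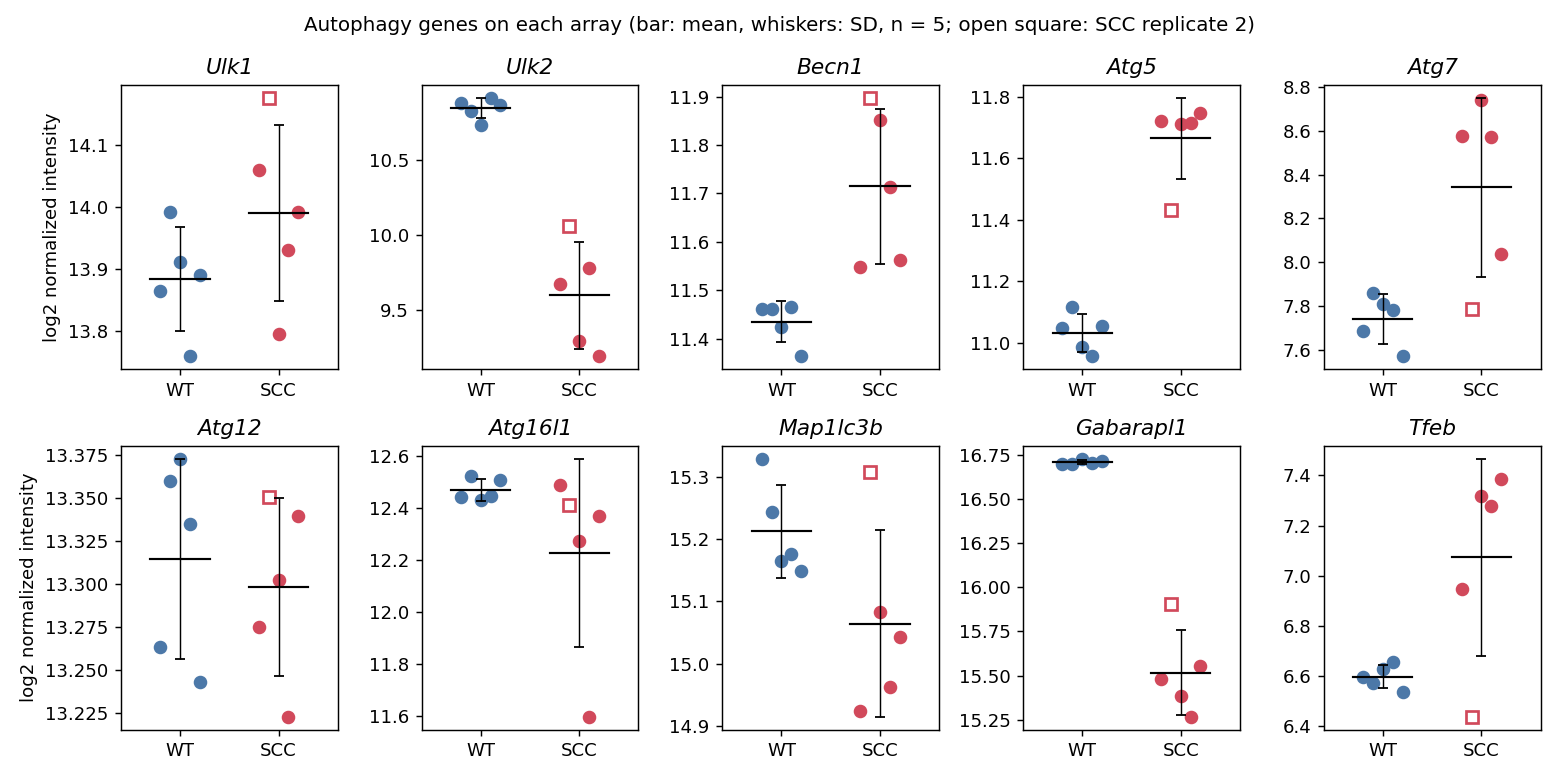
Normalized log2 intensity of the brightest probe of each of the 10 autophagy genes (y axis, one panel per gene, each with its own scale) on the 5 WT and 5 SCC arrays. Points are arrays, with SCC 2 as an open square, horizontal lines are group means and whiskers SDs. The groups are apart in the panels of Ulk2, Becn1, Atg5 and Gabarapl1.

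Of the 2 initiating kinases, Ulk2 was lower in SCC and Ulk1 did not pass the test. Ulk2, a kinase related to Ulk1 that can act in its place, was at 10.88, 10.83, 10.74, 10.91 and 10.87 log2 units on WT arrays 1 to 5 and at 9.67, 10.06, 9.29, 9.78 and 9.20 on SCC arrays 1 to 5. Every SCC array was below every WT array, and SCC 2 was the highest of them. The mean was 10.84 ± 0.068 for WT and 9.60 ± 0.36 for SCC (SD, 5 arrays each), and the difference was -1.24 (SE 0.16, 95% interval -1.60 to -0.89, limma adjusted p 0.0002), or 2.37-fold. The dimmer Ulk2 probe differed by -0.27 (SE 0.13, limma adjusted p 0.107) with overlapping groups. Taken within each array, the brighter probe fell by 0.98 log2 units against the dimmer one in SCC (exact permutation p 0.00794), so the size of the Ulk2 difference depends on the probe.

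Ulk1, the kinase that AMPK phosphorylates, was at 13.86, 13.99, 13.91, 13.76 and 13.89 on the WT arrays and at 14.06, 14.18, 13.79, 13.93 and 13.99 on the SCC arrays. The groups overlapped on 3 SCC arrays, and the difference was 0.11 (SE 0.093, 95% interval -0.10 to 0.31, limma adjusted p 0.363). Its dimmer probe was higher in SCC by 0.31 (SE 0.099, limma adjusted p 0.0274), with 10.96 to 11.17 on the WT arrays and 11.24 to 11.62 on the SCC arrays. Neither Ulk1 probe was lower in SCC. Within arrays, the difference between Ulk1 and Ulk2 moved by 1.35 log2 units toward Ulk1 in SCC (exact permutation p 0.00794, the smallest that the 252 splits of 10 arrays allow). The pair was chosen after its values were seen, and most of the movement is the Ulk2 difference itself. With the dimmer Ulk2 probe it was 0.37. With the brightest probes the movement was 1.31 on the slide that holds both groups and 1.42 without SCC 2.

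Becn1, the scaffold of the class III PI3-kinase complexes, was slightly higher in SCC. It was at 11.46, 11.46, 11.42, 11.47 and 11.36 on the WT arrays and at 11.55, 11.90, 11.85, 11.71 and 11.56 on the SCC arrays. The groups did not overlap, but the lowest SCC array was only 0.082 above the highest WT array. The difference was 0.28 (SE 0.094, 95% interval 0.070 to 0.49, limma adjusted p 0.032), 1.21-fold, and the exact permutation p was 0.00794. The adjusted p missed the threshold in 7 of 10 fits that left out 1 array (each of the 5 WT arrays, SCC 3 or SCC 4, up to 0.0739), and with slide as a block it was 0.179.

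Of the 4 conjugation genes, Atg5 and Atg7 were higher in SCC and Atg12 and Atg16l1 did not pass the test. Atg5, whose protein joined to ATG12 helps place LC3 on the membrane, was at 11.05, 11.12, 10.99, 10.96 and 11.05 on the WT arrays and at 11.72, 11.43, 11.71, 11.71 and 11.75 on the SCC arrays. All SCC arrays were above all WT arrays, with SCC 2 the lowest. The difference was 0.63 (SE 0.088, 95% interval 0.44 to 0.83, limma adjusted p 0.000309), 1.55-fold. With slide as a block, where the comparison rests on WT 5 against SCC 1 to 3, the difference was 0.57 and the adjusted p 0.0695.

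Atg7, the E1-like enzyme that activates ATG12 and the Atg8 proteins, was at 7.69, 7.86, 7.81, 7.78 and 7.57 on the WT arrays and at 8.58, 7.79, 8.74, 8.57 and 8.03 on the SCC arrays. SCC 2 lay within the WT range, and the other 4 SCC arrays lay above it. The difference was 0.60 (SE 0.18, 95% interval 0.19 to 1.01, limma adjusted p 0.0218, exact permutation p 0.0238), 1.52-fold. The adjusted p was 0.188 with slide as a block, 0.0519 without WT 5, 0.0529 without SCC 1 and 0.0516 without SCC 4.

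Atg12, a ubiquitin-like protein that is joined to ATG5, was at 13.24 to 13.37 on the WT arrays and 13.22 to 13.35 on the SCC arrays. The brightest probe differed by -0.017 (SE 0.072, 95% interval -0.18 to 0.14, limma adjusted p 0.863), and the ranges nearly coincide. Its 2 dimmer probes read otherwise, 0.37 (SE 0.14, limma adjusted p 0.0503) and 0.40 (SE 0.13, limma adjusted p 0.0245). On both of them 4 SCC arrays lay above all WT arrays, and SCC 2, at 9.62 and 9.01, did not. Atg16l1, which positions the ATG12 and ATG5 conjugate on the membrane, was at 12.44, 12.52, 12.43, 12.45 and 12.51 on the WT arrays and at 12.49, 12.41, 12.27, 11.60 and 12.37 on the SCC arrays. Its difference was -0.24 (SE 0.16, 95% interval -0.60 to 0.12, limma adjusted p 0.236), and SCC 4 lay 0.68 below the next array. Without SCC 4 the difference was -0.083 (limma adjusted p 0.434).

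Of the 2 Atg8 genes, Gabarapl1 was lower in SCC, and the brightest Map1lc3b probe did not pass the test. Gabarapl1, a protein of the GABARAP branch that sits on autophagosomes, was at 16.70, 16.70, 16.73, 16.71 and 16.71 on the WT arrays and at 15.48, 15.90, 15.38, 15.27 and 15.55 on the SCC arrays. All SCC arrays were below all WT arrays, with SCC 2 again the nearest to them, and the WT arrays lay within 0.030 log2 units of each other. The mean was 16.71 ± 0.013 for WT and 15.52 ± 0.24 for SCC (SD, 5 arrays each), and the difference was -1.19 (SE 0.12, 95% interval -1.45 to -0.93, limma adjusted p 4.36e-05), or 2.29-fold. Its dimmer probe was also lower, by -0.55 (SE 0.11, limma adjusted p 0.00272), with no overlap. The WT SD of that dimmer probe was 0.16, so the closeness of the WT arrays holds for the brighter probe only. Both probes thus gave the same direction, and within arrays the brighter one fell by 0.64 log2 units against the dimmer one (exact permutation p 0.00794).

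Map1lc3b, which encodes LC3B, the most used marker of autophagosomes, was at 15.33, 15.24, 15.16, 15.18 and 15.15 on the WT arrays and at 14.93, 15.31, 15.08, 14.96 and 15.04 on the SCC arrays. SCC 2 lay within the WT range and the other 4 SCC arrays below it. The difference was -0.15 (SE 0.094, 95% interval -0.36 to 0.06, limma adjusted p 0.214). Without SCC 2 it was -0.21 with an adjusted p of 0.0302. The dimmer probe gave the opposite sign, 0.54 (SE 0.13, limma adjusted p 0.00702), with 13.32 to 13.55 on the WT arrays and 13.98, 13.55, 14.19, 14.05 and 14.22 on SCC arrays 1 to 5, so that the groups did not overlap although SCC 2 lay next to the highest WT array. Within arrays, the brighter probe moved against the dimmer one by -0.69 (exact permutation p 0.0238). The direction for Map1lc3b therefore depends on the probe, and it also turned to 0.018 on the brightest probe with 75th percentile scaling.

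**Figure D2:**
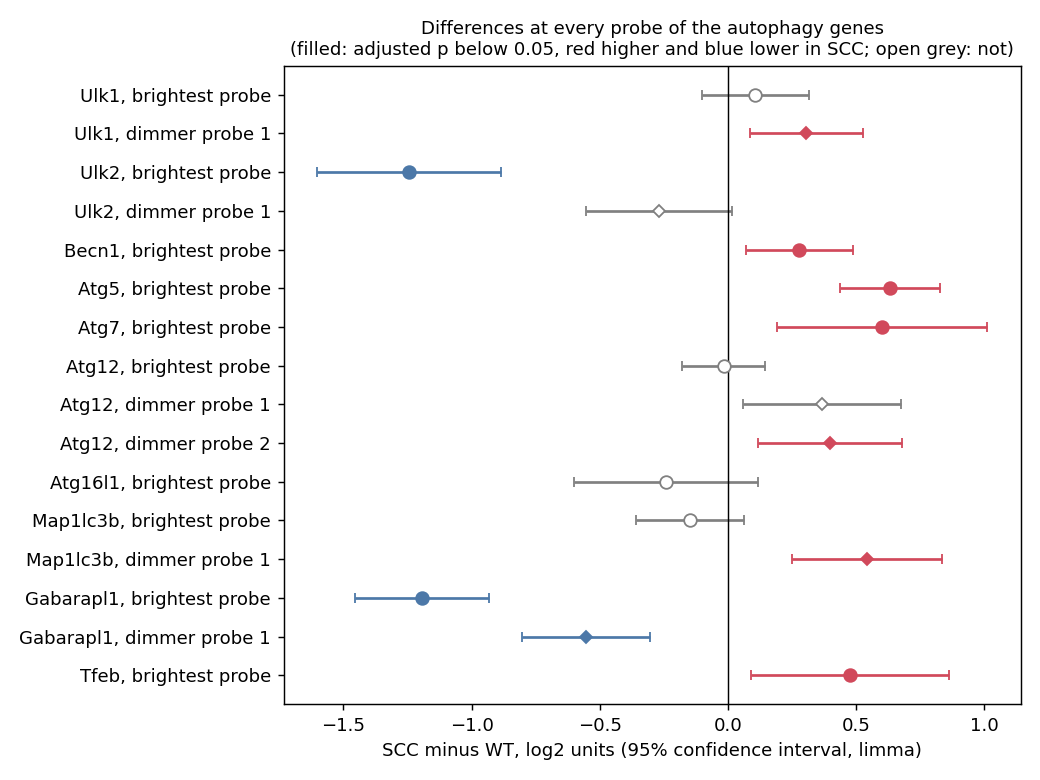
Difference between SCC and WT (x axis, log2 units, with 95% intervals from limma) for all 16 probes of the 10 autophagy genes (y axis), with circles for the brightest probe of each gene and diamonds for dimmer ones. Of the 16 probes, 7 passed higher, 3 passed lower and 6 did not pass, where 22.4% of all tested probes passed higher and 26.6% lower. For Map1lc3b the probes lie on opposite sides of 0, at -0.15 and 0.54.

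Across the 5 genes with several probes, the brightest probe fell by 0.20 to 0.98 log2 units against each dimmer probe in SCC, in 6 of 6 within-array comparisons. The exact permutation p, adjusted over these 6 comparisons and the 4 between related genes, was 0.0113 to 0.0476. Both Atg12 comparisons share their brightest probe. Over all 5681 genes with several tested probes, the brightest probe fell against the dimmer one in 59.2% of 7486 pairs, with a median movement of -0.075. The probes of a gene were paired with the same transcript accession, and the part of it that each reads was not analysed here.

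The related Atg8 genes did not move as Gabarapl1 did. Gabarap, its closest listed relative, was at 13.44, 13.40, 13.34, 13.47 and 13.18 on the WT arrays and at 13.68, 13.48, 14.04, 13.83 and 13.88 on the SCC arrays. It was higher on every SCC array than on any WT array, with a difference of 0.41 (SE 0.12, limma adjusted p 0.0152), and its other probe gave 0.44 (limma adjusted p 0.0135). With slide as a block, the adjusted p of Gabarap was 0.131. Gabarap also missed the threshold with the replicate block (limma adjusted p 0.0571). Gabarapl2 differed by -0.13 (limma adjusted p 0.18) and Map1lc3a by -0.23 (limma adjusted p 0.119). Within arrays, Gabarapl1 fell against Gabarap by 1.61 log2 units (Gabarap minus Gabarapl1), against Gabarapl2 by 1.07 and against Map1lc3b by 1.04, each with an exact permutation p of 0.00794 and an adjusted p of 0.0113 over the 10 comparisons. On the slide that holds both groups, these values were 1.68, 1.12 and 1.08. With the dimmer Gabarapl1 probe the movements were smaller, 0.97 against Gabarap, 0.43 against Gabarapl2 and 0.41 against Map1lc3b. These pairs, too, were chosen after their values were seen, and each holds the Gabarapl1 difference.

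Tfeb, the transcription factor of the list, was at 6.60, 6.57, 6.63, 6.66 and 6.54 on the WT arrays and at 6.95, 6.44, 7.32, 7.28 and 7.39 on the SCC arrays. The WT arrays lay close together, 4 SCC arrays lay above them and SCC 2 lay below them. The difference was 0.48 (SE 0.17, 95% interval 0.089 to 0.86, limma adjusted p 0.044, exact permutation p 0.0476), 1.39-fold. It was the least firm of the 6 calls. Without SCC 2 the difference was 0.63 (limma adjusted p 0.000499), each of the other 9 fits that left out an array missed the threshold (adjusted p up to 0.098), and with slide as a block the difference was 0.36 (adjusted p 0.448). It also missed the threshold with 75th percentile scaling (0.65, adjusted p 0.0744), no filter on dim probes (0.0622), the replicate block (0.0693) and the methods' t-test with Benjamini-Hochberg adjustment (0.0565).

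**Figure D3:**
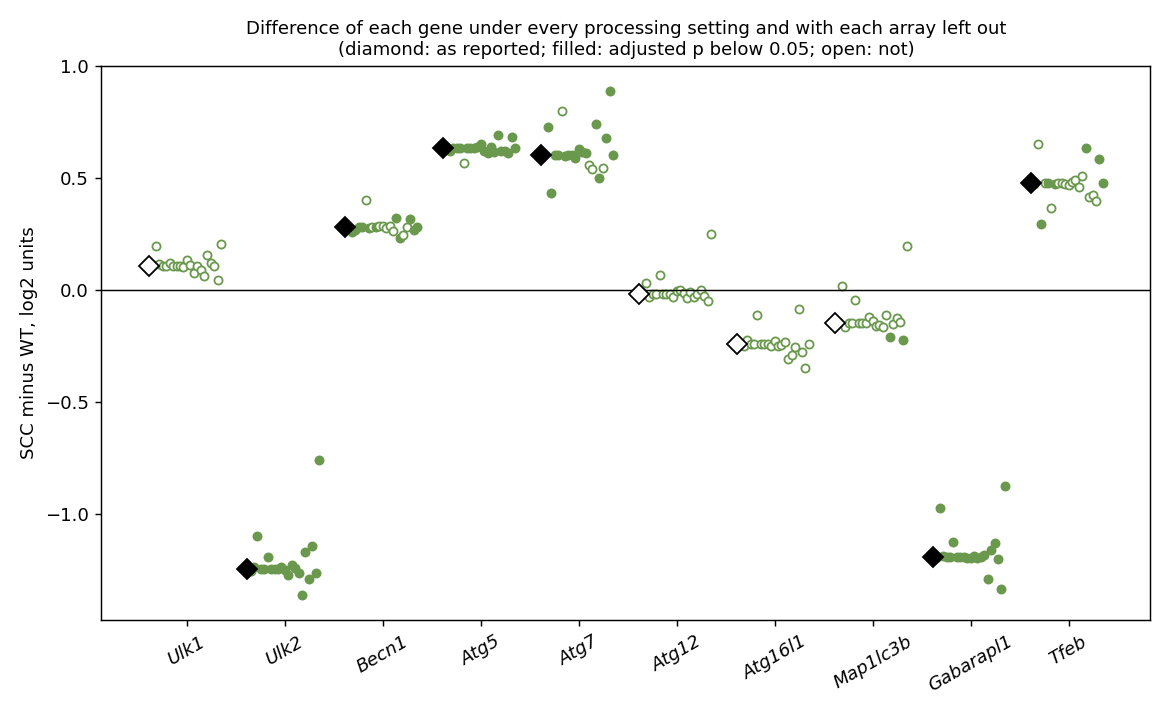
Difference between SCC and WT (y axis, log2 units) for the 10 autophagy genes (x axis) under the main setting, the 11 other settings and the 10 fits that leave out 1 array. The diamond is the main setting, filled symbols passed an adjusted p of 0.05 and open ones did not. Ulk2 and Gabarapl1 stay below 0 and pass throughout, and Atg12 and Map1lc3b change sign.

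SCC 2 was the SCC array nearest to the WT mean for 6 of the 10 genes (Ulk2, Atg5, Atg7, Map1lc3b, Gabarapl1 and Tfeb). Over the brightest probes of 15512 genes measured on every array, it was the nearest for 45.6%. Its squamous marker level was also the lowest of the SCC arrays, as given above, and the part of tissue composition in these values was not tested. Without SCC 2 and SCC 5 together, 7 genes passed, the 6 above and Map1lc3b (-0.22, limma adjusted p 0.0316). The count over all 30374 tested probes rose as well, from 14878 to 19731. The spread within a group was larger in SCC than in WT for 9 of the 10 genes, Atg12 being the exception. The same held for 82.8% of all brightest probes. SDs of the 10 genes ranged from 0.013 to 0.11 on the WT arrays and from 0.052 to 0.41 on the SCC arrays.

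A list of 55 other autophagy and lysosome genes, set by role, gives the surroundings, and 54 had a probe and were tested. Of these, 19 were higher and 11 lower in SCC, with a median difference of -0.034 log2 units. That is 30 of 54 against the background of 53.9% for brightest probes. At least 2-fold were 4 higher (Optn, Ctsb, Ctsd and Ctsl) and 1 lower (Rb1cc1), where 24.9% of brightest probes were. The genes named by role were named with their values known. Counts by role rest on the brightest probe of each gene.

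In the initiation complex, Rb1cc1, which encodes the scaffold FIP200 that holds the ULK kinases, was lower in SCC. Its brightest probe was at 11.83, 12.10, 12.15, 11.97 and 12.08 on the WT arrays and at 10.92, 11.47, 10.67, 10.82 and 10.92 on the SCC arrays. The groups did not overlap, and the difference was -1.07 (SE 0.15, limma adjusted p 0.000305), or with slide as a block -1.07 with an adjusted p of 0.0532. Of the other 5 Rb1cc1 probes only 1 passed, at -0.50 (limma adjusted p 0.0112), and the rest lay between -0.58 and 0.13, so the mean of all its probes was -0.39. Atg101, another subunit, was higher by 0.44, and Atg13 did not pass.

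Among the 7 other genes of the class III PI3-kinase complexes, Nrbf2 was higher (0.46), Atg14, the subunit that directs the complex to autophagy, was lower (-0.66), Rubcn, an inhibitor of autophagosome maturation, was lower on its brightest probe (-0.33), and 4 did not pass. A dimmer Rubcn probe, higher in SCC, was well above background on 4 SCC arrays and 0 WT arrays, so its WT side was not measured and no fold is given. Of 7 conjugation enzymes and proteases, Atg4c and Atg4d, proteases that cut Atg8 proteins, were higher (0.56 and 0.90), Atg10 and Atg16l2 were lower (-0.42 and -0.40), and 3 did not pass. Dimmer probes of Atg4c and Atg4d did not pass (0.11 and 0.30). Of the 3, Atg3 had a dimmer probe higher by 0.96 (limma adjusted p 0.000451). Atg4b had a dimmer probe lower by -0.59 (limma adjusted p 0.0184). Of the membrane supply genes, Atg2a (0.77) and Wipi1 (0.48) were higher and 2 did not pass. Of these 2, Wipi2 gave -0.13 on its brightest probe. Its dimmer probe was higher by 0.69 (limma adjusted p 0.00237), with no overlap.

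Optn, a receptor that links ubiquitin-tagged cargo to Atg8 proteins, was the receptor with the largest difference. It was at 8.14 to 8.46 on the WT arrays and at 9.24 to 9.91 on the SCC arrays, a difference of 1.33 (SE 0.14, limma adjusted p 5.54e-05). Of the 9 receptors, Calcoco1, Fundc1 and Wdfy3 were lower (-0.94, -0.55 and -0.56) and 5 did not pass. Among the latter was Sqstm1, which encodes p62 and gave -0.16 (limma adjusted p 0.105). For Wdfy3, dimmer probes gave 0.32 and -0.16 and did not pass. Of the fusion genes, Epg5 was higher (0.27), Stx17, the SNARE of the autophagosome, and Tecpr1 were lower (-0.85 and -0.44), and 2 did not pass. The dimmer Stx17 probe gave 0.19 (limma adjusted p 0.267). Of the 2, Snap29 had dimmer probes higher in SCC by 0.77 and 0.72 (limma adjusted p 0.0085 for both). Vamp8 had a dimmer probe lower by -0.32 (limma adjusted p 0.0363). Of 5 other transcription factors, Tfe3, a relative of Tfeb, was higher (0.55), Foxo1 was lower (-0.97), and 3 did not pass.

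Of the lysosome genes, 9 of 11 were higher in SCC, 0 were lower and 2 did not pass, where 25.5% of all brightest probes passed higher. Mcoln1 gave -0.11 and Lamp1 -0.18, and Lamp1 was lower on every SCC array than on any WT array (limma adjusted p 0.0835, exact permutation p 0.00794). The Lamp1 groups nearly touched, with 15.6475 on the highest SCC array and 15.6477 on the lowest WT array. The 11 genes had a median of 0.64 beside -0.037 over all brightest probes. Ctsd, which encodes the protease cathepsin D, was at 15.86 to 16.13 on the WT arrays, 16.45 on SCC 2 and 17.62 to 17.79 on the other SCC arrays, a difference of 1.49 (SE 0.24, limma adjusted p 0.000815). Ctsb was at 15.39 to 15.55, 16.08 and 16.87 to 17.13 in the same order (1.34, limma adjusted p 0.000255). Ctsl was at 15.47 to 15.75, 15.57 and 17.40 to 17.58 (1.47, limma adjusted p 0.0068). On SCC 2 all 3 cathepsins were thus below the other SCC arrays, and Ctsl was within the WT range. With slide as a block, 4 of the 11 lysosome genes passed higher (Lamp2, Ctsb, Atp6v1h and Hexa), and Ctsd and Ctsl were among the 5 that missed the threshold (adjusted p 0.0807 and 0.206). Promoter windows were listed for 8 of the lysosome genes, and 5 of these held CACGTG (62.5%), among them Ctsd and Ctsl, beside 5 of 45 windows of the pathway genes of the other roles (11.1%) and 7.15% of all windows. The full CLEAR element was in 0 of these 8 windows. Lamp1 and Mcoln1, the genes that did not pass, were also among these 5.

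**Figure D4:**
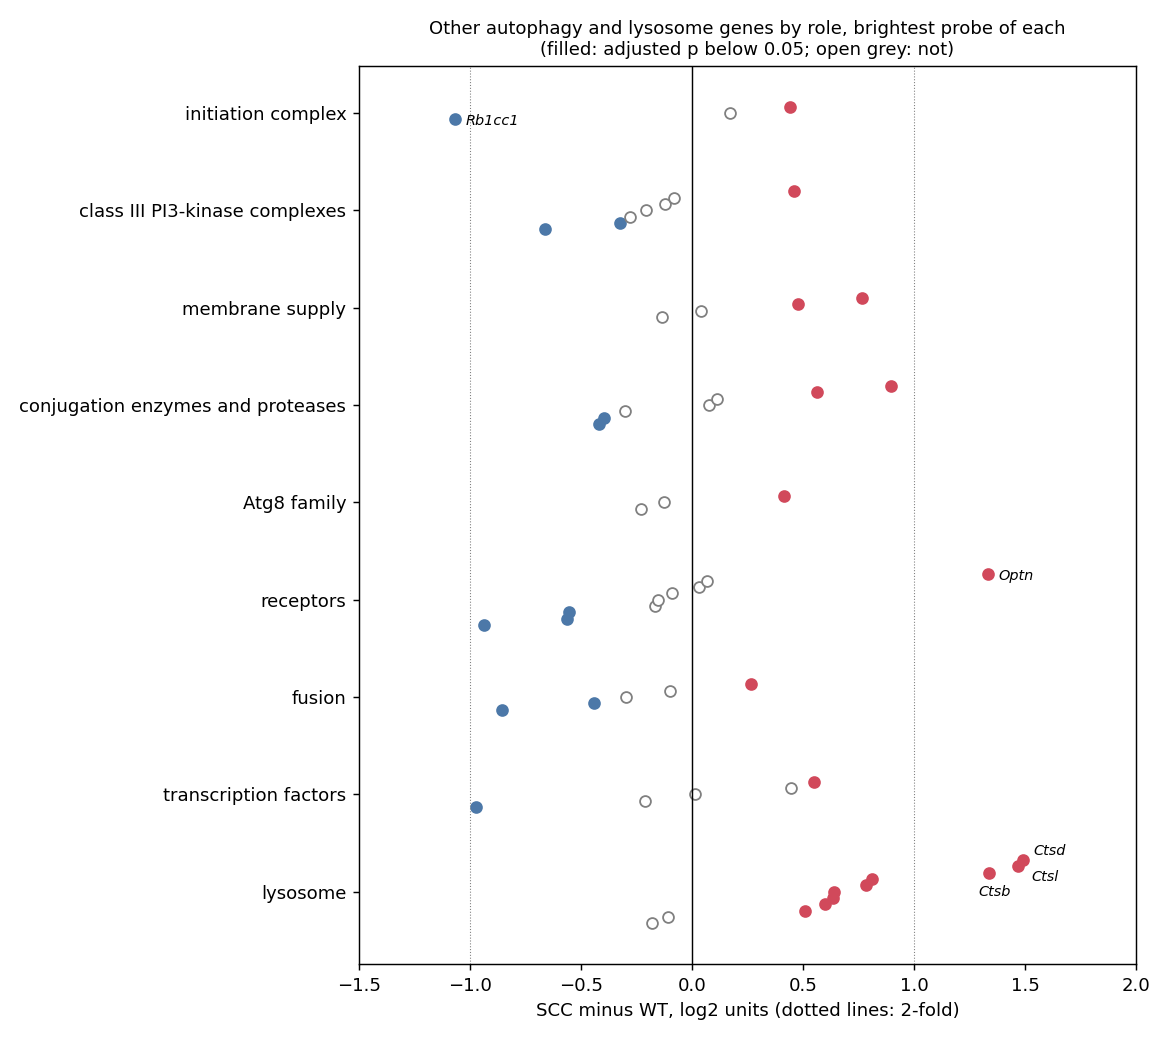
Difference between SCC and WT (x axis, log2 units) for the brightest probe of 54 other autophagy and lysosome genes, grouped by role (y axis). Filled points passed an adjusted p of 0.05 and dotted lines mark 2-fold. The lysosome genes lie mostly to the right, 9 of 11 passing higher, and the other roles hold points on both sides.

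Markers of other cell types moved with the groups. The macrophage mean (5 markers, Mrc1 and Cd68 higher and Marco lower) was 13.44 to 13.94 on the WT arrays, 13.55 on SCC 2 and 14.41 to 14.53 on the other SCC arrays, and the neutrophil mean (5 markers, 3 higher) was 10.79 to 11.81, 10.64 and 12.95 to 13.14. Both means were lower on SCC 2 than on the other SCC arrays, as were the squamous marker mean and the cathepsins. On SCC 2 the macrophage mean was within the WT range and the neutrophil mean below it. Ctsb and Ctsd were above every WT array there, and Ctsl was within the WT range. The endothelial mean (5 of 5 markers lower) was 13.18 to 13.40 on the WT arrays, 11.99 on SCC 2 and 11.24 to 11.43 on the other SCC arrays. The fibroblast mean (3 of 5 lower and 1 higher) was 14.01 to 14.18, 13.57 and 12.30 to 12.84. The alveolar type 1 mean (4 markers with a probe, 3 lower and Aqp5 higher) went from 15.68 to 15.89 in WT to 14.25 to 14.62 in SCC, the cardiac muscle mean (4 of 5 lower) from 10.36 to 14.08 to 8.67 to 10.37, and the ciliated mean (1 of 5 lower) from 9.70 to 11.29 to 8.37 to 10.68. Their part in the differences of the autophagy and lysosome genes was not tested.

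Upstream of the ULK kinases, the AMPK catalytic subunit gene Prkaa2 was lower by -2.09 (limma adjusted p 0.000118), and the brightest Prkaa1 probe, for the other catalytic subunit, differed by -0.076 (limma adjusted p 0.487) while its dimmer probe gave 0.88 (limma adjusted p 0.00121). Mtor was lower by -0.21 (limma adjusted p 0.0475), which missed the threshold in 8 of 10 fits that left out 1 array. It also missed it with slide as a block (adjusted p 0.327), the replicate block (0.151), normexp (0.0857) and no filter on dim probes (0.0712). Stk11 itself is not analysed here, as the symbol table gave it no probe.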

How the data were processed

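RNA of 5 WT lungs and 5 SCCs was hybridised by the authors to single-colour Agilent arrays. Per the file headers, the deposited scanner files hold spot intensities on a linear scale from Agilent Feature Extraction (version 12 per the labels), background-subtracted in the processed signal, together with median signals and flags. A deposited matrix, also from the authors, holds log2 values that correlated with log2 of the quantile-normalized processed intensity at r of at least 0.9999 on every array. Their methods state quantile normalization, log2 transformation and one-way ANOVA. limma was used in its place, and the methods' t-test was an alternative, also at the threshold that heads the study's gene list.

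Groups and replicate numbers came from sample titles. Spots flagged as outliers and control spots were dropped, the log2 values of a probe's spots were averaged, and 41174 probes were quantile-normalized. Tests were limited to probes flagged as well above background (a spot share of 0.5 or more) on 4 or 5 arrays of either group. This left 30374 probes, of which none was saturated. The fit used limma 3.58.1 under R 4.3.3 (lmFit, eBayes, all 10 arrays, no covariates, two-sided), with Benjamini-Hochberg adjustment over these probes. Single values were also compared by exact two-sided permutation over 252 splits. Each adjusted p is from limma unless another test is named. The number of arrays limits the precision.

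Accessions were paired with symbols through a RefSeq table (GRCm38.p6) for 28223 probes (68.5%). The header gives another build for the array design, so no array coordinates are printed.

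The arrays lay on 3 slides: WT 1 to 4 on the first, WT 5 and SCC 1 to 3 on the next, and SCC 4 and 5 on the last. Alternatives were the authors' matrix, 75th percentile scaling, normexp background correction (offset 50, from the median signal, since the files hold no mean signal), no filter or a filter on all 10 arrays, slide as a fixed or random block, the replicate number as a block, the methods' t-test, the mean of a gene's probes, and leaving out arrays. The autophagy genes, other lists and named genes (all 10, other pathway genes past the threshold and 2-fold, Map1lc3a, Gabarapl2, Gabarap, Sqstm1, Mtor, Prkaa1 and Prkaa2) were chosen with earlier results of these data known. The values of 1 other listed gene are not reported here.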

Additional observations from a re-analysis of the deposited data

Results flagged for a closer look

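In a group of 5 arrays, an array was picked out where its gap to the nearest other array, as a share of the group's whole range, was above Dixon's critical value of 0.71. Of 44 groups of values examined, 5 had such an array, and chance gives about 1 in 20. Of the 5, 4 were the lowest value on SCC 2. Atg5 was at 11.43 on SCC 2 and at 11.71 to 11.75 on the other SCC arrays (gap share 0.888). Ctsb was at 16.08 there and at 16.87 to 17.13 on the others (0.757). Ctsd was at 16.45 there and at 17.62 to 17.79 on the others (0.875). Ctsl was at 15.57 there and at 17.40 to 17.58 on the others (0.913). The remaining one was Atg16l1, at 11.60 on SCC 4 and at 12.27 to 12.49 on the other SCC arrays (0.758).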

How the results depend on the processing

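Ulk2 and Gabarapl1 passed in all 11 other settings and all 10 fits that left out 1 array, and Ulk1, Atg12 and Atg16l1 in none. The number of autophagy genes that passed was 6 and became 2 with slide as a fixed block, 2 with a 2-fold difference required and 2 with the methods' t-test at an unadjusted p of 0.01 and 2-fold. Leaving out 1 array gave 3 (without WT 5 or SCC 4) to 7 (without SCC 2). Over all probes the count was 14878, and it was 3814, 6954 and 5867 under those 3 settings and 12625 to 17865 with an array left out. For the other pathway genes it was 30, then 7, 5 and 5, and 27 to 34. The median over the 10 genes was 0.045, and it was 0.11 with 75th percentile scaling, 0.23 with the mean of a gene's probes, -0.0017 without SCC 2 and SCC 5, and 0.015 to 0.069 with 1 array left out. It was 0.093 with slide as a fixed block. The sign turned for Atg12 (0.032 with 75th percentile scaling, 0.066 with slide as a block, -0.035 to 0.0022 with 1 array left out, above 0 without SCC 4, and 0.25 with the mean of its probes), Map1lc3b (0.018 with 75th percentile scaling and 0.20 with the mean of its probes), Sqstm1 (0.0041 with 75th percentile scaling) and Prkaa1 (0.40 with the mean of its probes). With the mean of its probes Ulk2 differed by -0.76 and Gabarapl1 by -0.87. The causes were not tested. The slide block rests on 1 WT array. With the replicate block, 4 autophagy genes passed, 2 higher and 2 lower (Becn1 0.28, adjusted p 0.0838, and Tfeb 0.48, adjusted p 0.0693, did not), and 12374 probes and 26 other pathway genes passed. The replicate numbers did not pair the arrays: deviations of same-numbered arrays correlated at -0.10 to 0.0087, and none correlated best with its own number. A probe reads only its own stretch of a transcript, and probes of a gene disagreed in size or sign.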
